A study of Mus musculus with 24 samples.

Results

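Granins are acidic proteins of the dense core vesicles in which neurons and endocrine cells store peptide hormones, and the prohormone processing enzymes cut and finish the peptides inside those vesicles. The 10 genes described here were taken by symbol. They are 6 genes of the extended granin family, Vgf, Chga, Chgb, Scg2, Scg3 and Scg5, and 4 enzyme genes, Pcsk1, Pcsk2, Cpe and Pam. Each is measured by the probe with the highest mean that carries its symbol alone, and 9 of the 10 have such a probe, 1 each, among 19938 genes in all. Pcsk2 was not analysed here. The symbols were chosen without using measured values, but with earlier results of these data known.

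Hippocampal RNA came from males of a mixed C57BL/6J-129sv strain that were 8 to 9 weeks old, and 24 Affymetrix arrays form 4 groups of 6. The groups cross genotype, wild type (WT, FoxO6 +/+) or FoxO6 mutant (FoxO6 -/-, labelled null), with state. Basal mice were housed alone for at least 3 days. Learning mice were handled daily, spent 10 min in an empty arena 24 h before the task, explored a pair of identical objects there for 10 min and were killed 60 min later. Handling and arena, as described, therefore went with state, and what each contributed cannot be told apart. Single housing is described for basal mice only, so whether housing differed between states was not known here. In the series all learning samples are listed before all basal samples, and whether both states were processed together was not known here. The labels name no promoter or cell type for the null allele. They call the arrays biological replicates without tying each to an animal, so every p-value here rests on array-to-array spread, which may in part be technical. Foxo6 itself, on chromosome 4, was lower in the mutant by 0.73 on the log2 scale at basal (limma, adjusted p = 0.000128) and by 0.63 after learning (adjusted p = 0.000833). None of the 10 genes lies on chromosome 4. In GRCm38.p6, Scg5 lies at chr2:113776313-113829091, Vgf at chr5:137025301-137033351, Pcsk1 at chr13:75089420-75134861, Chgb at chr2:132781642-132795079, Scg2 at chr1:79434366-79440026 and Cpe at chr8:64592542-64693109.

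In a maturing vesicle, prohormones are cut after pairs of basic residues by the convertases PC1/3 (Pcsk1) and PC2 (Pcsk2). Carboxypeptidase E (Cpe) then trims the exposed basic residues, and peptidylglycine alpha-amidating monooxygenase (Pam) converts a terminal glycine to the amide that many peptides need for activity. Chromogranins and secretogranins (Chga, Chgb, Scg2, Scg3) help to sort cargo and shape the granule and are themselves cut into peptides. Scg5 encodes 7B2, the chaperone and inhibitor of PC2, and Vgf encodes a neurotrophin-responsive precursor of many peptides.

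The labelled tissue was set against marker lists by rank of mean level. All 8 excitatory neuron markers and all 13 measured pyramidal cell markers had a mean above that of the median gene, while thalamic and hypothalamic markers did so in 5 of 11 and choroid plexus markers in 2 of 15. Neocortex markers did so in 7 of 10, astrocyte markers in 10 of 10 and oligodendrocyte markers in 9 of 9, so these counts do not tell hippocampus from other forebrain tissue. All 9 measured members stood above the median gene too. Cpe was among the brightest genes on the arrays, with 6 genes above it, and its mean was 13.14 on the log2 scale. Vgf stood lowest by rank, at the 74.9th percentile of mean levels. Ranks of different probes do not compare amounts of RNA.

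The arrays parted by state across much of the genome, and this sets the background for every member. After learning, limma called 43.3% of all genes in WT (25.1% higher and 18.2% lower) and 41.3% in the mutant (22.6% higher and 18.7% lower) at an adjusted p under 0.05. The median difference of all genes was 0.03 in each genotype. Of the members, 6 of 9 (66.7%) were called in WT and 5 of 9 (55.6%) in the mutant. With 9 genes, these shares are a description beside the background and not a result about the family as a whole. In WT 5 members rose and 1 fell, and in the mutant 4 rose and 1 fell.

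Other lists moved with state and their part in the members' differences was not tested. Of 8 excitatory neuron markers, 7 fell and 1 rose in each genotype, and the mean level of the list ran from 10.75 to 10.86 in WT basal arrays against 10.41 to 10.51 in WT learning arrays. Of 15 choroid plexus markers measured, 1 fell in WT (6.67%) and 5 in the mutant (33.3%) after learning, beside 18.2% and 18.7% of all genes. The WT share thus lies below that of all genes. The median differences of these markers were −0.22 and −0.25. Their leading gene Ttr, the thyroid hormone carrier transthyretin, split the WT basal arrays, at 11.65, 12.11 and 11.81 in arrays 1 to 3 and 8.80, 9.64 and 9.17 in arrays 4 to 6. It ran from 11.01 to 11.99 in mutant basal arrays, 8.46 to 10.20 in WT learning arrays and 8.59 to 11.65 in mutant learning arrays. The mean of the 15 markers ran from 5.82 to 6.77 in WT basal, 6.34 to 6.82 in mutant basal, 5.93 to 6.17 in WT learning and 5.88 to 6.73 in mutant learning arrays. In bulk tissue fewer cells of a type and less RNA per cell cannot be told apart.

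**Figure D1:**
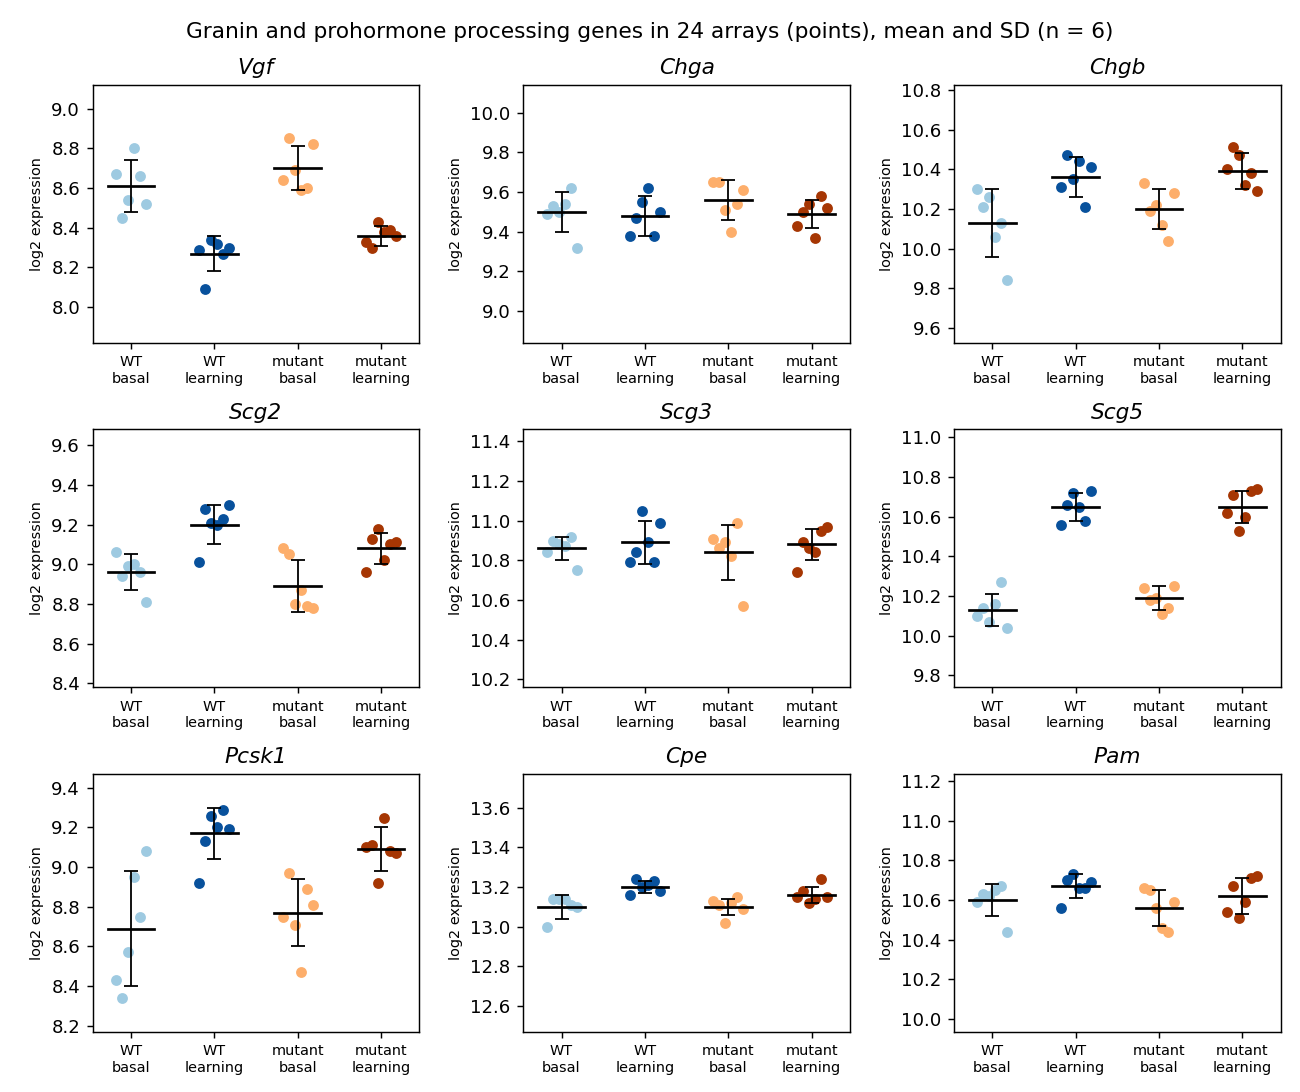
Log2 expression of the 9 measured genes (vertical axes, all spanning the same range) in WT basal, WT learning, mutant basal and mutant learning arrays (points, 6 a group), with mean and SD in black. Scg5 is higher and Vgf lower in every learning array than in every basal array of its genotype, and Pcsk1 is spread widest in WT basal arrays, from 8.34 to 9.08.

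Among the granins, Scg5 rose most. In WT basal arrays it ran from 10.04 to 10.27 (median 10.12) and in WT learning arrays from 10.56 to 10.73 (median 10.65). The mutant gave 10.11 to 10.25 (median 10.18) at basal and 10.53 to 10.74 (median 10.66) after learning. Every learning array thus lay above every basal array in both genotypes, a separation that 25.2% of all genes showed in WT and 22.7% in the mutant, in either direction. The mean went from 10.13 ± 0.08 to 10.65 ± 0.07 in WT (SD, n = 6), a difference of 0.52 (95% interval 0.43 to 0.60, 1.43-fold, limma adjusted p = 2.69e-11). In the mutant it went from 10.19 ± 0.06 to 10.65 ± 0.08, a difference of 0.47 (0.38 to 0.55, 1.38-fold, adjusted p = 1.84e-10). In WT 1019 of all genes had a larger difference in size.

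Vgf went the other way. It ran from 8.45 to 8.80 (median 8.60) in WT basal arrays and from 8.09 to 8.34 (median 8.30) in WT learning arrays. In the mutant it ran from 8.59 to 8.85 (median 8.67) and from 8.30 to 8.43 (median 8.37). The learning arrays lay below all basal arrays of their genotype. The fall was by 0.34 in WT (SE 0.0571, 0.791-fold, limma adjusted p = 1.43e-05) and by 0.33 in the mutant (SE 0.0571, 0.793-fold, adjusted p = 1.68e-05), which placed Vgf at the 7.0th and 7.7th percentile of all differences. No other member was called lower in either genotype, and Vgf was called lower under each of the 39 alternative settings, by at least 0.28 in WT and 0.30 in the mutant.

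Chgb and Scg2, both cut into peptides and both thought to drive granule formation, rose by less. Chgb ran from 9.84 to 10.30 (median 10.17) in WT basal arrays and from 10.21 to 10.47 (median 10.38) after learning, with WT learning array 5 inside the basal range. Its mean rose from 10.13 ± 0.17 to 10.36 ± 0.10, by 0.23 (SE 0.0611, 1.17-fold, limma adjusted p = 0.0027). In the mutant it ran from 10.04 to 10.33 (median 10.21) and from 10.29 to 10.51 (median 10.39), with 4 of 6 learning arrays above all basal arrays. The rise there was 0.20 (1.15-fold, adjusted p = 0.0105), which a second quantile normalization took to 0.13 (adjusted p = 0.0514).

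Scg2 ran from 8.81 to 9.06 (median 8.98) in WT basal arrays and from 9.01 to 9.30 (median 9.22) after learning, and only WT learning array 1 fell inside the basal range. Its mean rose from 8.96 ± 0.09 to 9.20 ± 0.10, by 0.24 (SE 0.057, 1.18-fold, limma adjusted p = 0.000811). In the mutant the arrays ran from 8.78 to 9.08 (median 8.83) and from 8.96 to 9.18 (median 9.10). The rise of 0.19 (1.14-fold, adjusted p = 0.00781) was read from groups of which 4 of 6 learning arrays cleared the basal range.

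Chga and Scg3, a chromogranin and its binding partner in the granule membrane, were not called. Chga ran from 9.32 to 9.62 in WT basal arrays and 9.38 to 9.62 in WT learning arrays, and from 9.40 to 9.65 and 9.37 to 9.58 in the mutant. The differences were −0.02 (95% interval −0.12 to 0.09) and −0.07 (−0.18 to 0.04), with the 4 groups overlapping throughout. Scg3 spanned 10.57 to 11.05 over all arrays, with differences of 0.03 (−0.08 to 0.14) in WT and 0.04 (−0.08 to 0.15) in the mutant. These intervals leave out a change as large as that of Scg5. The sign of the Scg3 differences turned after a second quantile normalization and that of Chga in WT after median centring. Averaged over genotypes, Chga was called lower after the second quantile normalization alone (−0.09, limma adjusted p = 0.0352).

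Of the enzymes, the convertase gene Pcsk1 rose most. It ran from 8.34 to 9.08 (median 8.66) in WT basal arrays and from 8.92 to 9.29 (median 9.20) after learning, and from 8.47 to 8.97 (median 8.78) to 8.92 to 9.25 (median 9.09) in the mutant. All but 1 learning array of each genotype lay above the basal range. The mean rose from 8.69 ± 0.29 to 9.17 ± 0.13 in WT, by 0.48 (SE 0.0952, 1.39-fold, limma adjusted p = 0.000122), and from 8.77 ± 0.17 to 9.09 ± 0.11 in the mutant, by 0.32 (1.25-fold, adjusted p = 0.00663).

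The WT basal arrays that split on Ttr also split on Pcsk1 and Chgb. Pcsk1 was 8.43, 8.34 and 8.57 in the arrays high in Ttr and 8.95, 8.75 and 9.08 in the rest. Chgb was 10.30, 10.21 and 10.26 in the former and 10.06, 10.13 and 9.84 in the latter, so the pair moved in opposite directions. Measured against WT basal arrays 4 to 6 alone, the WT rise of Pcsk1 was 0.24 (adjusted p = 0.0397), and against arrays 1 to 3 alone it was 0.72 (adjusted p = 1.87e-07). For Chgb the same comparisons gave 0.35 (adjusted p = 0.000128) and 0.11 (adjusted p = 0.167). With the mean of the choroid plexus markers in the model, Pcsk1 rose by 0.38 in WT (adjusted p = 0.000544) and differed by 0.18 in the mutant (adjusted p = 0.115). No other measured member parted the 2 sets of WT basal arrays without overlap. These sets were chosen after Ttr was seen, and the share of all genes that part in this way was not counted.

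Cpe, the carboxypeptidase, rose slightly in WT. It ran from 13.00 to 13.14 (median 13.12) at basal and from 13.16 to 13.24 (median 13.21) after learning, without overlap, a difference of 0.10 (SE 0.0267, 1.07-fold, limma adjusted p = 0.00276). A second quantile normalization gave 0.15. In the mutant it ran from 13.02 to 13.15 (median 13.12) and from 13.12 to 13.24 (median 13.15), a difference of 0.06 (adjusted p = 0.0697). That value was called without WT basal array 1 (adjusted p = 0.0414), without WT basal arrays 1 to 3 (0.0497), without mutant basal array 5 (0.0498), with dim genes left out (0.041), with a residual component as covariate (0.0452) and after the second quantile normalization (0.13, adjusted p = 9.63e-05).

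Pam, the amidating enzyme, ran from 10.44 to 10.67 in WT basal arrays and from 10.56 to 10.73 after learning, with differences of 0.07 in WT (95% interval −0.03 to 0.16) and 0.06 in the mutant (−0.03 to 0.16). Neither was called. Averaged over genotypes, Pam differed by 0.06 (limma adjusted p = 0.0894), and without mutant learning array 3 by 0.08 (adjusted p = 0.0444). The same average called 54.8% of all genes (31.7% higher and 23.1% lower) and 6 of the 9 members, the 6 that were called in WT.

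**Figure D2:**
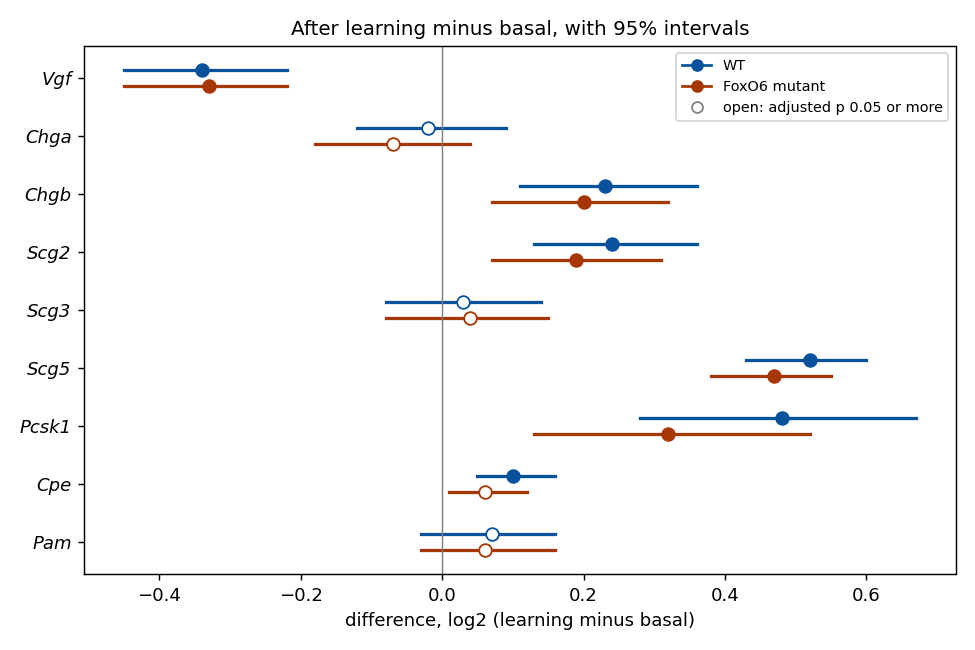
Learning minus basal difference (log2, horizontal axis) of each measured gene in WT (blue) and FoxO6 mutant arrays (brown), with 95% intervals from limma; filled points have an adjusted p under 0.05. Scg5 (0.52 and 0.47) and Pcsk1 (0.48 and 0.32) lie farthest right and Vgf (−0.34 and −0.33) alone lies left with a filled point.

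An exact two-sided permutation test of each member over all assignments of 12 arrays to 2 groups was run beside limma. Scg5 and Vgf each reached an exact p of 0.00216 in both genotypes, the smallest it can give, and 0.0156 after Benjamini-Hochberg adjustment over the 36 tests. Adjusted in this way, 6 members passed in WT and 4 in the mutant. The exception was Scg2 in the mutant (exact p = 0.0216, adjusted 0.0599), which limma called.

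The cAMP response element is a sequence that activity-driven transcription is known to use. The promoters shown were picked by outcome, as those of the members that rose in both genotypes. The full element stands in 3 of them, and these are all that carry it among the 8 members searched. They are the 250 bases before the start in RefSeq's annotation of GRCm38.p6, read 5′ to 3′ on the strand of the gene, with capitals marking every match to a motif searched. Of the 10 genes, 8 had an entry, and Vgf and Cpe had none. Whether Vgf, the member that fell, carries the element was therefore not seen, and the element cannot be set against direction among the members. Pcsk1 lies at chr13:75089607-75089856 (plus strand), Scg2 at chr1:79440027-79440276 (minus), Chgb at chr2:132781392-132781641 (plus) and Scg5 at chr2:113829092-113829341 (minus). The start used for Pcsk1 lies downstream of the first base of its gene record.
Pcsk1: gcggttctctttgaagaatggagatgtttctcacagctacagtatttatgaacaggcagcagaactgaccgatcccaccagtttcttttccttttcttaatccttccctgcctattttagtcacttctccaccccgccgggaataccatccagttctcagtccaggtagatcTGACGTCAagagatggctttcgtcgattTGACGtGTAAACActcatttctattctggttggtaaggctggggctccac
Scg2: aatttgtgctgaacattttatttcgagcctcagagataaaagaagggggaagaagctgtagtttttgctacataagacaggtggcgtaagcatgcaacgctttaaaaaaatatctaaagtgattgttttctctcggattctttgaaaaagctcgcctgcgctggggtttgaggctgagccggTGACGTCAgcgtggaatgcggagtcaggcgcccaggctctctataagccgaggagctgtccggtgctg
Chgb: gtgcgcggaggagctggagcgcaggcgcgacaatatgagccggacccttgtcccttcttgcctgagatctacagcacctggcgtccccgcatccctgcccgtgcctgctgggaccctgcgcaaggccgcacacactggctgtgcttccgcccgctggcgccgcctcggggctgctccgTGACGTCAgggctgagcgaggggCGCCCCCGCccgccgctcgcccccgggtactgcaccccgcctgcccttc
Scg5: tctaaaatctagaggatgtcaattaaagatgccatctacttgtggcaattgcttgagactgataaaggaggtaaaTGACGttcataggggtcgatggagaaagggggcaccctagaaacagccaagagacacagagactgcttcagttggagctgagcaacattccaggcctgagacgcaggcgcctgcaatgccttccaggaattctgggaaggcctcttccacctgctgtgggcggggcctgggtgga

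The full cAMP response element TGACGTCA, the site of the transcription factor CREB, lies 72 to 65 bases before the start of Chgb, 68 to 61 before that of Scg2 and 78 to 71 before that of Pcsk1. It was found in 1.55% of all 32851 promoter entries of this length. These entries can hold several starts of a gene and were not limited to measured genes, while the members are counted by gene. The half-site TGACG, which every full element contains on both strands, was found in 7 of the 8 promoters, against 17.8% of all entries. Chga carries it 44 to 40 bases before the start, Scg3 30 to 26, Scg5 175 to 171 and Pcsk2 34 to 30, and Pcsk1 carries a second copy at 50 to 46. The forkhead motif TGTTTAC, of the kind FoxO proteins bind, was found in 1 of the 8, in Pcsk1 at 44 to 38 bases before the start on the other strand, against 3.17% of all entries. The Egr motif GCGNGGGCG was found in Chgb and, with 3 copies, in Pcsk2 (4.70% of all entries). The AP-1 motif TGANTCA (6.75% of all entries) and the TATA box TATAAA (12.4%) were found in 0 of the 8. All motifs were searched on both strands.

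A motif match is a description of letters, and its part in the members' differences was not tested. Among measured genes with a promoter entry, 364 had the full element, of which limma called 34.9% higher and 22.3% lower in WT after learning. The 15198 genes without it gave 25.6% and 18.2%. For the mutant these shares were 33.8% and 22.8% with the element and 22.9% and 18.8% without it.

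**Figure D3:**
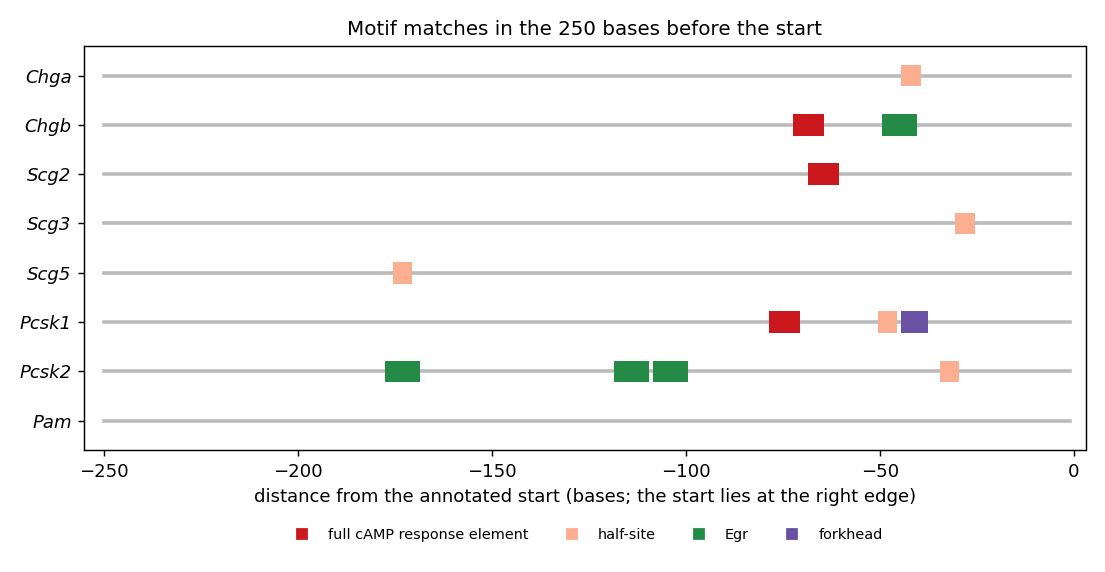
Motif matches (coloured boxes) in the 250 bases before the annotated start of the 8 genes with a promoter entry, by distance from the start (horizontal axis, bases). Full cAMP response elements (red) stand in Chgb, Scg2 and Pcsk1 between 78 and 61 bases before the start, half-sites without a full element (pale) in Chga, Scg3, Scg5 and Pcsk2, and Pam has no match.

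Between genotypes, none of the 9 members was called. At basal the mutant differed from WT by −0.07 (Scg2) to 0.09 (Vgf), where limma called 0.1% of all genes (0.0451% higher and 0.0552% lower). No member had an unadjusted p under 0.05 in limma at basal, beside 898 of all 19938 genes. After learning the differences ran from −0.12 (Scg2) to 0.10 (Vgf), where 0.0752% of all genes were called (0.015% higher and 0.0602% lower). The groups did not overlap for 0.431% of all genes at basal and 0.371% after learning, and overlapped for all 9 members. Averaged over states 0.391% of all genes (0.176% higher and 0.216% lower) and 0 members were called. In that average 2 of the 9 members, both granins, had an unadjusted p under 0.05 in limma, beside 1766 of all 19938 genes.

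After learning, Scg2 ran from 8.96 to 9.18 in mutant arrays and from 9.01 to 9.30 in WT arrays. The difference was −0.12 (95% interval −0.24 to −0.00, limma adjusted p = 0.672). It was the 1 member of 9 with an unadjusted p under 0.05 in limma (0.0451), beside 1461 of all 19938 genes. The exact permutation p of Scg2 was 0.0519. Vgf ran from 8.30 to 8.43 in mutant arrays and from 8.09 to 8.34 in WT arrays, with 4 of 6 mutant arrays above all WT arrays. Its difference was 0.10 (95% interval −0.02 to 0.21, limma adjusted p = 0.748). Its exact permutation p was 0.0173 and 0.0519 after adjustment over the 36 tests. Scg5 differed by 0.05 at basal and 0.01 after learning, with 95% intervals of −0.03 to 0.14 and −0.08 to 0.09, so differences as large as its rise after learning lie outside both. Pcsk1 had the widest intervals, −0.12 to 0.27 at basal and −0.27 to 0.12 after learning.

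Beside these values, 15 choroid plexus markers had medians of 0.20 and 0.15 between genotypes at basal and after learning, 16 interneuron markers 0.12 and 0.04, and 12 dentate granule cell markers −0.14 and −0.11. Interneurons express several of the peptides that the members process. The part of these marker differences in the members' values was not tested.

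The learning response was set against genotype by the interaction, which is the learning difference in the mutant minus that in WT. Limma called 0.0% of all genes (0 of 19938, with 510 at an unadjusted p under 0.05) and 0 of the 9 members, of which 0 had an unadjusted p under 0.05. The largest was that of Pcsk1, −0.16 (95% interval −0.43 to 0.12), and its size and sign turned on the WT basal arrays. It was 0.08 without arrays 1 to 3 and −0.40 without arrays 4 to 6, and was called in neither case. Intervals were −0.17 to 0.07 for Scg5, −0.16 to 0.17 for Vgf, −0.22 to 0.11 for Scg2 and −0.21 to 0.14 for Chgb.

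**Figure D4:**
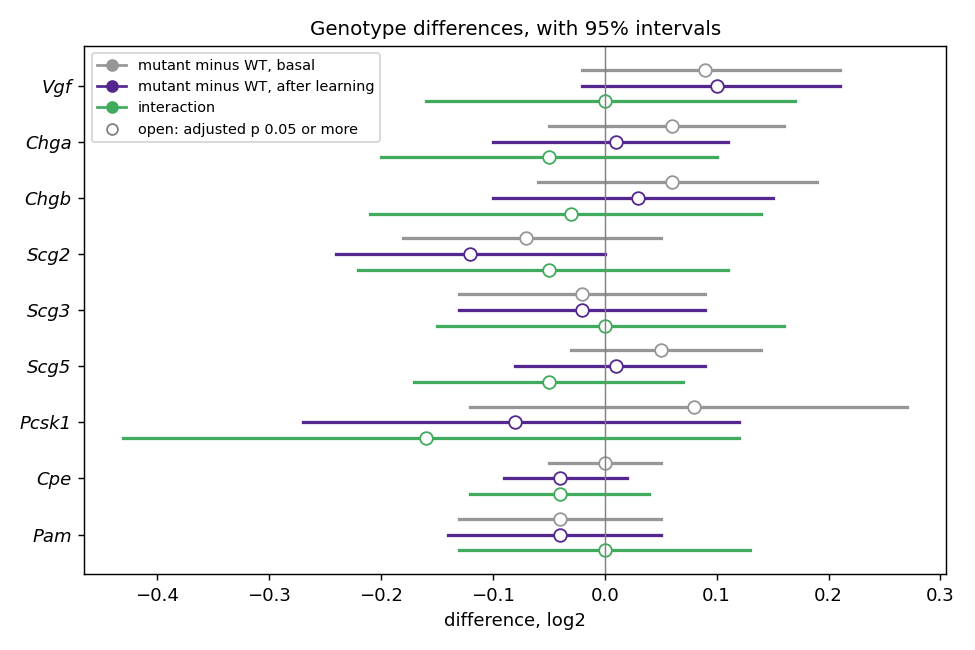
Mutant minus WT difference at basal (grey) and after learning (violet) and the interaction (green) for each measured gene (log2, horizontal axis), with 95% intervals from limma. All points are open, meaning an adjusted p of 0.05 or more, and the interaction of Pcsk1 (−0.16, or 0.08 without WT basal arrays 1 to 3) lies farthest from 0.

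The order of the 4 group means followed state for the called genes. For Scg5, Chgb and Pcsk1 both learning means (10.65 and 10.65, 10.36 and 10.39, 9.17 and 9.09) stood above both basal means (10.13 and 10.19, 10.13 and 10.20, 8.69 and 8.77, WT first). For Scg2 the order from the top was WT learning (9.20), mutant learning (9.08), WT basal (8.96) and mutant basal (8.89), and for Vgf mutant basal (8.70), WT basal (8.61), mutant learning (8.36) and WT learning (8.27). Cpe stood at 13.20 in WT learning, 13.16 in mutant learning and 13.10 in both basal groups. Neighbours of the same state were not called different by limma. For Chga, Scg3 and Pam no comparison of 2 groups was called.

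Within groups, the members varied together only in part. With each group's mean taken off, the 36 pairs of members had a median Pearson r of 0.25 over the 24 arrays (−0.55 to 0.81), with 29 above 0. Scg5 and Pam were most alike (r = 0.81, Spearman rho 0.83), then Chga and Pam (r = 0.70, rho 0.67), and Chgb and Pcsk1 were most opposed (r = −0.55, rho −0.53). The last pair includes the WT basal arrays that split on Ttr. There Chgb had means of 10.26 in arrays 1 to 3 and 10.01 in arrays 4 to 6, and Pcsk1 8.45 and 8.93. An r without these arrays was not computed, and every r of Chgb or Pcsk1 below includes the same split. All pairs share the same arrays and normalization. Outside the family, with the symbol classes named under processing passed over, the genes most like Scg5 were Chmp2a (r = 0.80), Ptgds (0.79) and Sdhb (0.78). Those most like Vgf were Tmem59l (0.70), Rcan2 (0.68) and Emp2 (0.68). For Scg2 they were Sort1 (0.85), which encodes the sorting receptor sortilin, Ints13 (0.79) and Hsf2 (0.77). For Pcsk1 they were Trim32 (0.86), Brinp3 (0.85) and Mef2c (0.84), and for Chgb Stk25 (0.91), Syn2 (0.90) and Mmd (0.87). For Chga they were Vps28 (0.86), Rtl8c (0.84) and Napb (0.84), for Scg3 Bag1 (0.80), Rybp (0.80) and Tma7 (0.78), for Cpe Zcchc17 (0.80), Kcnh7 (0.78) and Gpm6a (0.76), and for Pam Rasgrf2 (0.85), Cend1 (0.84) and Ptgds (0.84).

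Some of the like genes moved with state, in either direction, where limma called 43.3% of all genes in WT. Of those like Scg2, Sort1 fell by 0.23 in WT (limma adjusted p = 3.48e-07), while Ints13 and Hsf2 rose with Scg2, by 0.48 and 0.52. Of those like Chgb, Syn2, a synapsin gene, fell by 0.20 and Stk25 by 0.15, while Mmd rose by 0.15. Brinp3 rose with Pcsk1 (0.58), Ptgds with Scg5 (0.35) and Gpm6a with Cpe (0.08), and Tmem59l fell with Vgf (−0.23), all in WT. Tmem59l was not called in the mutant (−0.06, limma adjusted p = 0.505), where Vgf fell too. Not called in WT were Trim32 (0.06) and Mef2c (0.02), like Pcsk1, and Chmp2a (0.04) and Sdhb (0.08), like Scg5. The same held for Rcan2 (0.03) and Emp2 (−0.15), like Vgf, and for Bag1, Zcchc17, Rasgrf2 and Cend1.

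The list of other processing genes holds convertases, carboxypeptidases and further peptidases, glutaminyl cyclases and the inhibitor Pcsk1n. Of 22 measured, 3 rose (13.6%) and 8 fell (36.4%) in WT (median −0.12), beside 25.1% and 18.2% of all genes. In the mutant 3 rose (13.6%) and 10 fell (45.5%), with a median of −0.16, beside 22.6% and 18.7%. Pcsk1n, which encodes proSAAS, the inhibitor of PC1/3, fell from 10.98 ± 0.09 to 10.51 ± 0.05 in WT (0.722-fold, limma adjusted p = 5.57e-11) and by 0.48 in the mutant. Furin, the convertase of the constitutive pathway, fell by 0.60 (0.659-fold, adjusted p = 1.58e-09) and 0.53, and the lysosomal protease gene Ctsb by 0.22 (adjusted p = 3.41e-05) and 0.24. Qpct, the glutaminyl cyclase that forms the pyroglutamate end of some peptides, rose by 0.77 in WT (1.71-fold, adjusted p = 3.03e-08) and 0.60 in the mutant. Ctsl, which encodes cathepsin L, a protease that also acts in secretory vesicles, rose by 0.45 (adjusted p = 4.72e-10) and 0.37, and the peptide-degrading neprilysin gene Mme by 0.41 (adjusted p = 0.00116) and 0.40. So the genes of the PC1/3 convertase and its inhibitor moved in opposite directions. Scg5, whose product is both chaperone and inhibitor of PC2, rose, and Pcsk2 itself was not analysed.

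Genes of dense core vesicle assembly and release were called in both directions. Of 36 measured, 10 rose (27.8%) and 14 fell (38.9%) in WT (median −0.09), beside 25.1% and 18.2% of all genes. In the mutant 10 rose and 10 fell (27.8% each, median −0.05), beside 22.6% and 18.7%. The share that rose is near that of all genes. Syt4, a vesicle synaptotagmin known as activity-induced, rose by 0.56 in WT (1.47-fold, limma adjusted p = 1.55e-12) and 0.48 in the mutant. Atp7a, the copper pump that supplies the amidating enzyme, rose by 0.49 (adjusted p = 1.01e-05) and 0.30, and the fusion protein gene Snap25 by 0.20 (adjusted p = 1.07e-05) and 0.17. By their p in the mutant, Resp18, a granule protein gene, rose by 0.62 there and 0.48 in WT, and Rab27a, a small GTPase of granule docking, by 0.43 and 0.33. Ptprn, which encodes the granule membrane protein IA-2, fell by 0.59 (0.666-fold, adjusted p = 2.19e-12) and 0.60. Hid1, needed for granule formation, fell by 0.42 (adjusted p = 3.95e-11) and 0.45, and the priming factor gene Unc13a by 0.36 (adjusted p = 2.86e-09) and 0.35.

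Of 27 measured genes listed here for secreted cargo, 11 rose (40.7%) and 3 fell (11.1%) in WT, beside 25.1% and 18.2% of all genes. Which cells and vesicles carried their products was not measured. In the mutant 10 rose (37.0%) and 3 fell (11.1%), beside 22.6% and 18.7%. The list medians of 0.06 and 0.05 lie near the 0.03 of all genes. Grp, gastrin-releasing peptide, rose by 0.84 in WT (1.79-fold, limma adjusted p = 2.22e-11) and 0.82 in the mutant, Vip, vasoactive intestinal peptide, by 0.80 (adjusted p = 4.80e-09) and 0.86, and Bdnf, the neurotrophin, by 0.64 (adjusted p = 2.05e-09) and 0.51. Nptx1, a neuronal pentraxin, fell by 0.55 (adjusted p = 2.15e-10) and 0.49, Igf2 by 0.46 (adjusted p = 2.62e-05) and 0.54, and Sst, somatostatin, by 0.31 (adjusted p = 0.00017) and 0.22. None of the 3 lists had a member called in the interaction. The smallest p-values there included those of Penk, proenkephalin, which rose by 0.33 in WT and 0.18 in the mutant (interaction −0.15, SE 0.0935), and Nucb1 (interaction 0.10, SE 0.0618).

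Activity-induced genes show the scale of the response in these arrays. Of 27, 19 rose (70.4%) and 2 fell (7.41%) in WT (median 0.45), beside 25.1% and 18.2% of all genes. In the mutant 19 rose (70.4%) and 1 fell (3.70%), with a median of 0.42, beside 22.6% and 18.7%. Fos rose by 1.60 in WT (3.03-fold, limma adjusted p = 3.19e-13), Egr2 by 1.07 (adjusted p = 6.29e-10) and Rheb by 0.82 (adjusted p = 1.32e-13). The rises of Scg5 and Pcsk1 in WT were about as large as that list's median, and Vgf fell while 19 of the 27 rose.

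**Figure D5:**
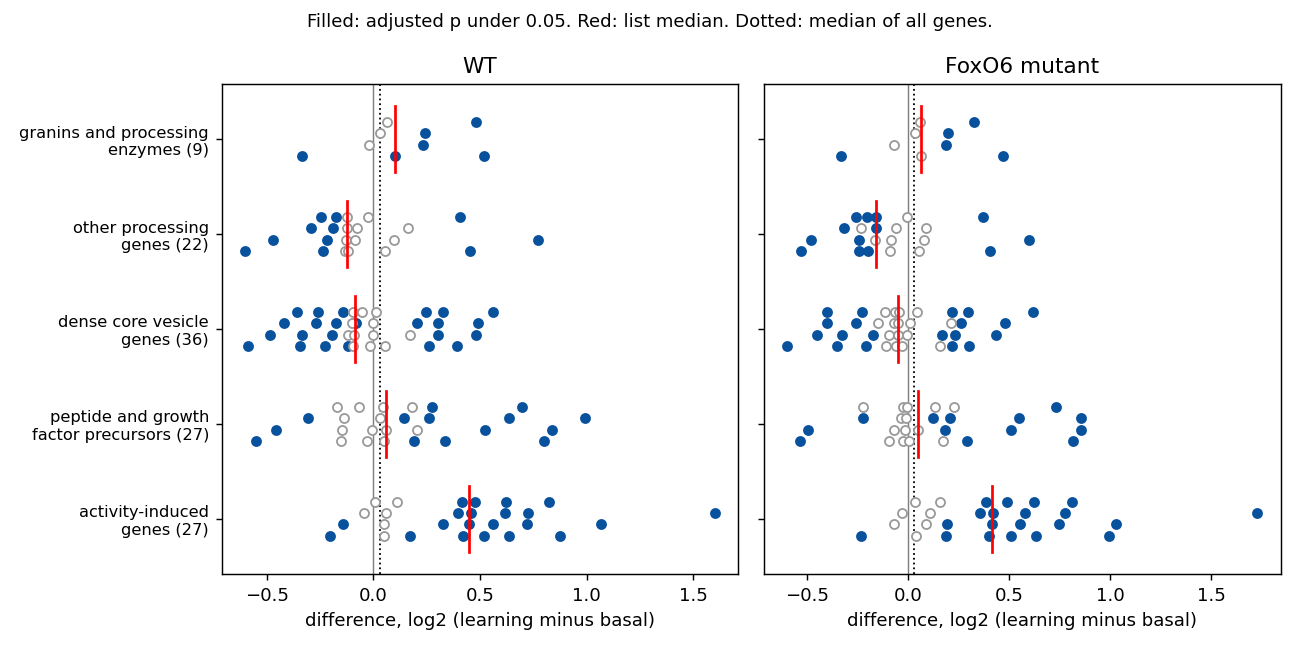
Learning minus basal difference (log2, horizontal axis) of each gene (points) of 5 lists in WT (left) and FoxO6 mutant (right); filled points have an adjusted p under 0.05 in limma, red bars are list medians and the dotted line is the median of all genes (0.03). Activity-induced genes centre at 0.45 and 0.42, while the other processing genes centre below 0, at −0.12 and −0.16.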

How the data were processed

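The deposited table holds log2 expression values that the authors made with RMA, per the submitters' processing notes. Its version and the chip definition used were not given in the sources used here. Of 35511 probes, 21789 carry 1 symbol in the platform annotation, 1621 several and 12101 none. Array medians ran from 6.16 to 6.30, and within-group arrays correlated at 0.991 or more across genes. The number of arrays limits the precision.

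A linear model of the 4 group means was fitted to all 24 arrays in limma 3.58.1 (R 4.3.3), with eBayes and a mean-variance trend (29.0 degrees of freedom). Tests were two-sided. The Benjamini-Hochberg adjustment ran over 19938 genes, and "called", "rose" and "fell" stand for an adjusted p under 0.05. SE and 95% intervals use limma's moderated spread, and ± is SD. The code was tested on simulated data.

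All members were named. From the processing, vesicle and cargo lists up to 3 called genes per direction with the smallest p in each learning comparison were named, or, in the interaction, genes with the smallest p. Of activity-induced genes the 3 with the smallest p in WT were named, and for each member the 3 genes most like it in group-centred values. That search ran over all measured genes outside the family, so each r is among the highest of many. It passed over symbols of predicted, clone-named and pseudogene records, olfactory and vomeronasal receptors, the mitochondrial genome and small RNAs. Members, lists, motifs and tests were chosen with earlier results of these data known. Alternatives were 24 single arrays left out and 15 other settings, of which those without WT basal arrays 1 to 3 or 4 to 6 were chosen after seeing the data. The planned count of paired basic residues in the proteins was not run.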

Additional observations from a re-analysis of the deposited data

Results flagged for a closer look

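Among the 36 sets of 6 arrays formed by 9 genes and 4 groups, 4 held an array far from the other 5, where chance gives about 1 in 20. Vgf was 8.09 in WT learning array 2, and without that array it fell by 0.30 in WT. Scg2 was 9.01 in WT learning array 1, and without it the rise was 0.28. Cpe was 13.00 in WT basal array 1, and without it the rise was 0.08 (limma, called in each of the 3 cases). Pam was 10.44 in WT basal array 6, and without it the difference was 0.03, not called.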

How the results depend on the processing

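Under the 39 alternatives 5 to 6 members were called in WT after learning, 4 to 6 in the mutant and 0 between genotypes within a state. The averages and the interaction had 38, since a model of only the 2 groups compared cannot give them, with 6 to 7 members called for learning averaged over genotypes and 0 for the rest. With an array of the groups compared left out, 426 of 432 learning differences kept their sign and call, 2 gained a call and 4 changed sign. Chga in WT then ran from −0.0545 to 0.0038 and Scg3 in the mutant from −0.0184 to 0.0645. Chga in WT was 0.0163 after median centring. After a second quantile normalization Scg3 was −0.0175 in WT, −0.0102 in the mutant and −0.0138 averaged. The cause of these changes of sign was not tested. Pam averaged over genotypes was called with the interneuron mean as covariate (adjusted p = 0.0289) and with a residual component (0.05 after rounding).

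Over all genes the calls ran from 6660 to 11901 in WT, from 6666 to 11429 in the mutant, from 4 to 51 between genotypes at basal and from 7 to 58 after learning. With the replicate block 6 members were called in WT, 5 in the mutant and 0 between genotypes, against all-gene counts of 8634 and 8261 after learning. Same-numbered arrays of different groups correlated at −0.30 to 0.45 in their deviations from group means, so the numbers were not taken to pair the arrays, and the block changed no member's call.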

Other observations

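Egr3, an activity-induced transcription factor gene chosen after its values were seen, fell after learning as Vgf did. The fall was 0.20 in WT (limma adjusted p = 0.000559) and 0.23 in the FoxO6 mutant (limma adjusted p = 0.00013), while its relative Egr2 rose by 1.07 and 1.03. Arc, a gene induced by synaptic activity and chosen in the same way, rose by 0.87 in WT and 1.00 in the mutant. In the interaction Arc differed by 0.12 (SE 0.124) and Egr3 by −0.03 (SE 0.0652), and neither was called.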
